A study of Mus musculus with 12 samples.

Results

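The N-glycan precursor genes examined here are 32 mouse genes that make activated sugars and the lipid-linked oligosaccharide from which every N-glycan starts. They were taken by gene name from a table of 55536 genes measured by RNA sequencing of whole mouse thyroid. All 32 were found in the table, and all 32 were among the 19661 genes that passed the filter on low counts. The study compared 5 affected C57BL/6NTac (B6NTac, Taconic) mice with 7 unaffected mice. Affected mice had thyroid dysplasia and came from a colony in which a LINE-1 retrotransposon had inserted into an intron of Tg, the gene of thyroglobulin. The paper reports this insertion in affected mice, and that most Tg reads at this site in the sequenced affected mice skipped the exon after it. Its abstract describes such skipping in most Tg transcripts of homozygous animals. By RT-PCR, the paper found the exon kept in most Tg transcripts of heterozygous animals. Of the unaffected mice, 6 were C57BL/6NCrl (B6NCrl, Charles River), numbered 21 to 26, and 1 was an unaffected B6NTac knockout animal, numbered 14, whose knocked-out gene was not named. Sex, age and whether each sequenced affected animal was heterozygous or homozygous for the LINE-1 were not given in the sources used here. Apart from mouse 14 the phenotype and the substrain cannot be told apart.

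N-glycosylation attaches a branched sugar to proteins as they enter the endoplasmic reticulum (ER). The sugar is first built on dolichol, a long isoprenoid lipid, starting on the cytosolic face of the ER membrane and finishing on its lumenal face, and is then moved to the protein by oligosaccharyltransferase. The hexosamine pathway supplies UDP-GlcNAc, and a separate branch supplies GDP-mannose. Thyroglobulin, the protein on which thyroid hormone is made, is a large secreted glycoprotein that follicular cells produce in bulk.

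Library totals ranged from 11434901 counts in unaffected mouse 14 to 23319948 in affected mouse 5. Tg took 10.7% to 24.3% of the counts in affected mice and 21.6% to 29.6% in unaffected mice, with a log2 fold change of -0.49 (adjusted p = 0.14 in edgeR). Of 26 alternative settings, Tg passed in 1, without affected mouse 4 (-0.67, adjusted p = 0.0306), and its log2 fold change ranged from -0.67 to -0.18. The thyroid identity factors Pax8, Nkx2-1 and Foxe1 were present in every library, and their summed level, in counts scaled to library size (CPM), was 303, 457, 726, 562 and 328 in affected mice 1, 3, 4, 5 and 6, against 656 to 894 in unaffected mice, so that 4 of the 5 affected mice lay below all unaffected mice. A wider sum of 11 follicular markers, without Tg, was 956, 1964, 2000, 2000 and 989 CPM in the affected mice, in the same order. It was 1370 to 2175 CPM in unaffected mice, so that affected mice 3, 4 and 5 lay inside that range and mice 1 and 6 below it. Of 12 follicular markers, 1 was lower past the threshold, Pax8 (log2 fold change -0.81, adjusted p = 0.0158 in edgeR), and 1 was higher, Slc26a4 (3.69, adjusted p = 0.00301). These counts are near the shares over all genes tested, 6.10% lower and 7.63% higher, and 6 of the 12 had a log2 fold change above 0. Slc26a4 was near the floor, at 0 to 6 counts in unaffected and 11 to 77 counts in affected mice. Tissue around the follicles differed between libraries. Skeletal muscle markers were at 20599 CPM in affected mouse 6 and at 1.18 to 9652 CPM in unaffected mice, brown fat markers reached 1028 CPM in affected mouse 1, and T cell markers 295 and 299 CPM in unaffected mice 14 and 21. Affected mouse 3 had airway markers at 1493 CPM and cartilage markers at 590 CPM, and affected mouse 4 had parathyroid markers at 46.3 CPM, against 3618 CPM or more in the other mice. Counts are also given without affected mice 1 and 6, which had the lowest thyroid factors, and without unaffected mice 14 and 21, and each mouse was left out in turn.

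In affected thyroids, 9 of the 32 genes (28.1%) were higher and 0 were lower at an adjusted p of 0.05 in edgeR's quasi-likelihood test, and 0 were lower at an unadjusted p of 0.05. Across all 19661 genes tested, 7.63% were higher and 6.10% were lower by the same rule. The 9 genes were Gfpt1, Gfpt2 and Uap1 of the hexosamine pathway, Gmppa of mannose supply, Nus1 of dolichol synthesis, Dpagt1 and Alg1 of the cytosolic assembly steps, and Alg12 and Alg8 of the lumenal steps. For 7 of the 32 (21.9%), all 5 affected values exceeded all 7 unaffected values, which held for 3.78% of all genes tested, and for 0 of the 32 they all lay below, against 3.36%. The log2 fold change was above 0 for 27 of the 32 (84.4%), against 50.8% of all genes, with a median of 0.21 against 0.01. DESeq2 called 12 genes higher and 0 lower, with 10.4% of all genes higher. Without affected mice 1 and 6, 13 were higher, with 9.42% of all genes, and without unaffected mice 14 and 21, 6 were higher, with 5.61% of all genes. In whole tissue, fewer cells of a type and less RNA per cell cannot be told apart.

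**Figure D1:**
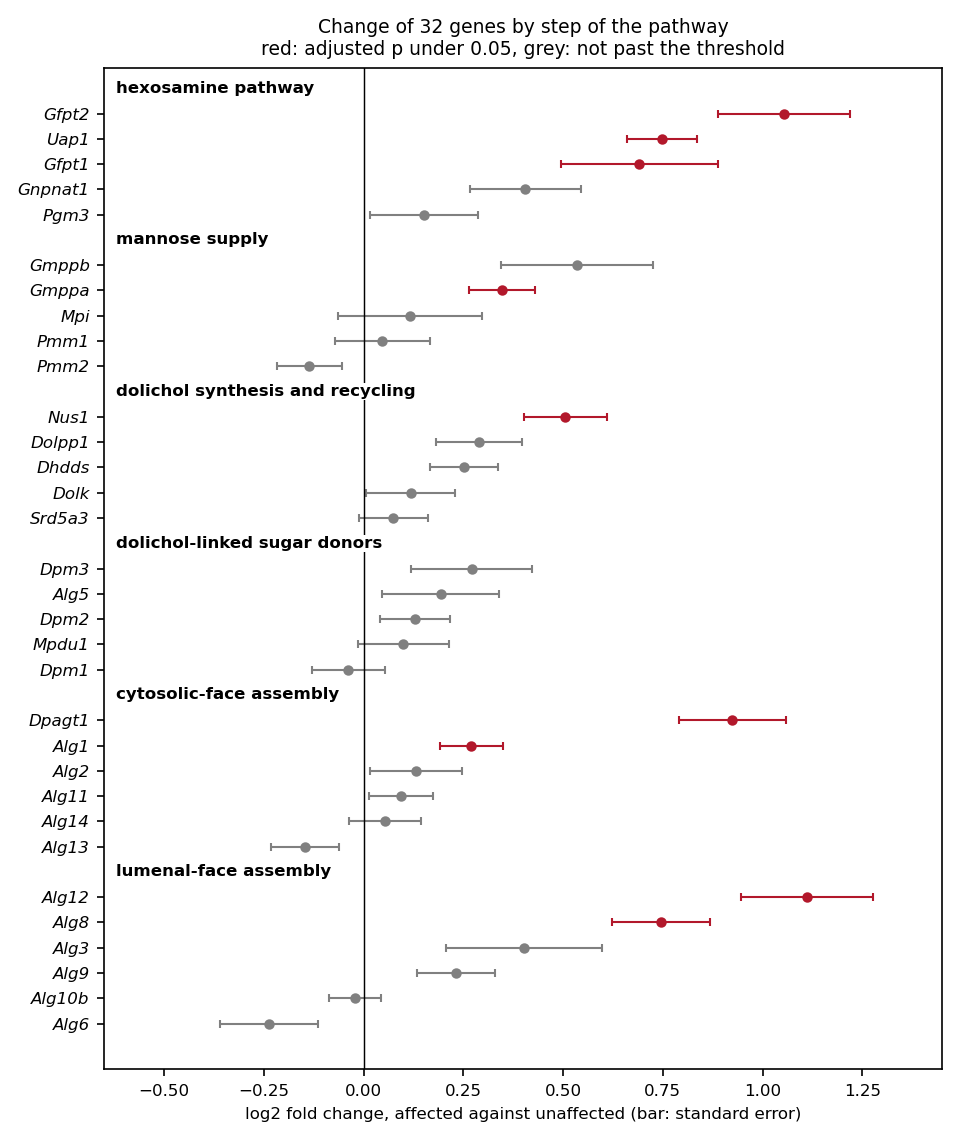
Log2 fold change (x axis, affected against unaffected mice) of the 32 genes, grouped by pathway step; points are estimates and bars are standard errors, with genes past an adjusted p of 0.05 in red. The 9 red genes all lie to the right of 0, from 0.27 for Alg1 to 1.11 for Alg12, and the dolichol-linked sugar donors hold none.

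The promoter of Alg12, the member with the largest change, was the one member promoter that held a full ER stress response element (ERSE), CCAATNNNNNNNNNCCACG, a motif known as a binding site of unfolded protein response factors. RefSeq promoter windows on GRCm38.p6, from 250 bases before to 50 after the start, were found for 27 of the 32 genes. On either strand, the full motif was in 1 of these 27 and in 0.119% of all 32851 windows. It is shown here on the gene's strand (minus), chr15:88819480-88819568, with the match in capitals, from 220 to 202 bases before the start.
Alg12: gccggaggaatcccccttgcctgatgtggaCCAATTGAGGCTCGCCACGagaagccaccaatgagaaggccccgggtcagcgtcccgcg

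Other stress motifs, ERSE-II (ATTGGNCCACG), the core TGACGTGG and TGATGNAA, were in 0 of the 27 windows, against 0.0365%, 0.676% and 3.97% of all windows. The ends of the ERSE were searched alone after the values had been seen, and they overlap the longer motifs. Of the 27 genes with a window, 8 were higher past the threshold. CCACG was in 14 of the 27 and in 32.8% of all windows, and 5 of these 14 genes were higher past the threshold while 9 did not pass. CCAAT was in 14 of the 27 and in 37.4% of all windows, and 6 of these 14 genes were higher. Whether either motif goes with the rise was not tested. CCACG is shown for 3 of the genes that rose and for none that did not pass, so that the sequence around it can be compared with that of Alg12, on each gene's strand with CCACG or its reverse complement in capitals. The windows are chr6:87042698-87042752 (plus strand) for Gfpt1, chr1:170175058-170175112 (minus strand) for Uap1 and chr10:52417461-52417515 (plus strand) for Nus1. Gfpt1 held a second match, not shown, as the reverse complement from 24 to 20 bases before the start. A CCAAT lay from 49 to 45 bases before the start of Gfpt1. A match describes letters and was not tested as a site.
Gfpt1: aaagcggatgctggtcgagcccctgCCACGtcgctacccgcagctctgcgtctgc
Uap1: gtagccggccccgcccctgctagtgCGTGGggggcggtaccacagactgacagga
Nus1: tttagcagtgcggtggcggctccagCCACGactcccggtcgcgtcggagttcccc

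The hexosamine pathway held 3 higher genes of 5, and its median log2 fold change was 0.69. Gfpt1 and Gfpt2 encode alternative forms of glutamine-fructose-6-phosphate transaminase, the rate-limiting first enzyme. Gfpt2 (ENSMUSG00000020363, chr11:49794178-49838613, plus strand, GRCm38 as for all coordinates of genes here) was at 34.4, 34.6, 17.4, 24.1 and 24.6 CPM in affected mice 1, 3, 4, 5 and 6, and at 11.1 to 16.3 CPM with a median of 12.3 in the 7 unaffected mice. The groups did not overlap, although affected mouse 4 lay close to the highest unaffected mouse. Gfpt2 rose 2.08-fold (log2 fold change 1.05, SE 0.17, adjusted p = 0.00156). Gfpt1 (ENSMUSG00000029992, chr6:87042846-87092197, plus strand) was at 156, 266, 287, 265 and 164 CPM in the affected mice, in the same order, and at 103 to 208 CPM with a median of 133 in the unaffected mice. Affected mice 3, 4 and 5 were above all unaffected mice, whereas mice 1 and 6 lay inside the unaffected range.

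Gfpt1 rose 1.61-fold (log2 fold change 0.69, SE 0.20, adjusted p = 0.0363). This call was lost when affected mouse 3, 4 or 5 was left out (adjusted p = 0.0866, 0.0615 and 0.0916) and when unaffected mouse 14, 21, 22, 25 or 26 was left out (adjusted p = 0.0647, 0.0613, 0.0554, 0.0610 and 0.0626). Without affected mice 1 and 6, its log2 fold change was 0.95 (adjusted p = 0.00478). The ratio of Gfpt1 to Gfpt2 within a mouse, on the log2 scale of CPM, averaged 3.07 ± 0.71 (SD, n = 5) in affected and 3.41 ± 0.45 (SD, n = 7) in unaffected mice, and this difference did not pass an exact two-sided permutation test (p = 0.328, adjusted over 5 ratios 0.399).

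Uap1 (ENSMUSG00000026670, chr1:170141938-170174957, minus strand), which makes UDP-GlcNAc in the last step of the pathway, was at 48.8, 59.1, 49.8, 56.5 and 50.9 CPM in affected mice 1, 3, 4, 5 and 6. In unaffected mice it was at 27.2 to 37.6 CPM with a median of 30.5. No affected mouse came near the unaffected range, mice 1 and 6 included. Uap1 rose 1.68-fold (log2 fold change 0.75, SE 0.09), and its adjusted p of 0.000268 was the smallest among the 32 genes. The enzymes between did not pass the test. Gnpnat1, which acetylates glucosamine-6-phosphate, had a log2 fold change of 0.41 (SE 0.14, adjusted p = 0.071), passing without affected mouse 6 (adjusted p = 0.0457) or without unaffected mouse 23 (adjusted p = 0.0330), and Pgm3, the GlcNAc phosphomutase, had one of 0.15 (SE 0.14, adjusted p = 0.499). Exons of Gnpnat1 lie over Styx on the opposite strand for 81.9% of their length, and strand use in the counting was not stated, so reads of this pair may be mixed.

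**Figure D2:**
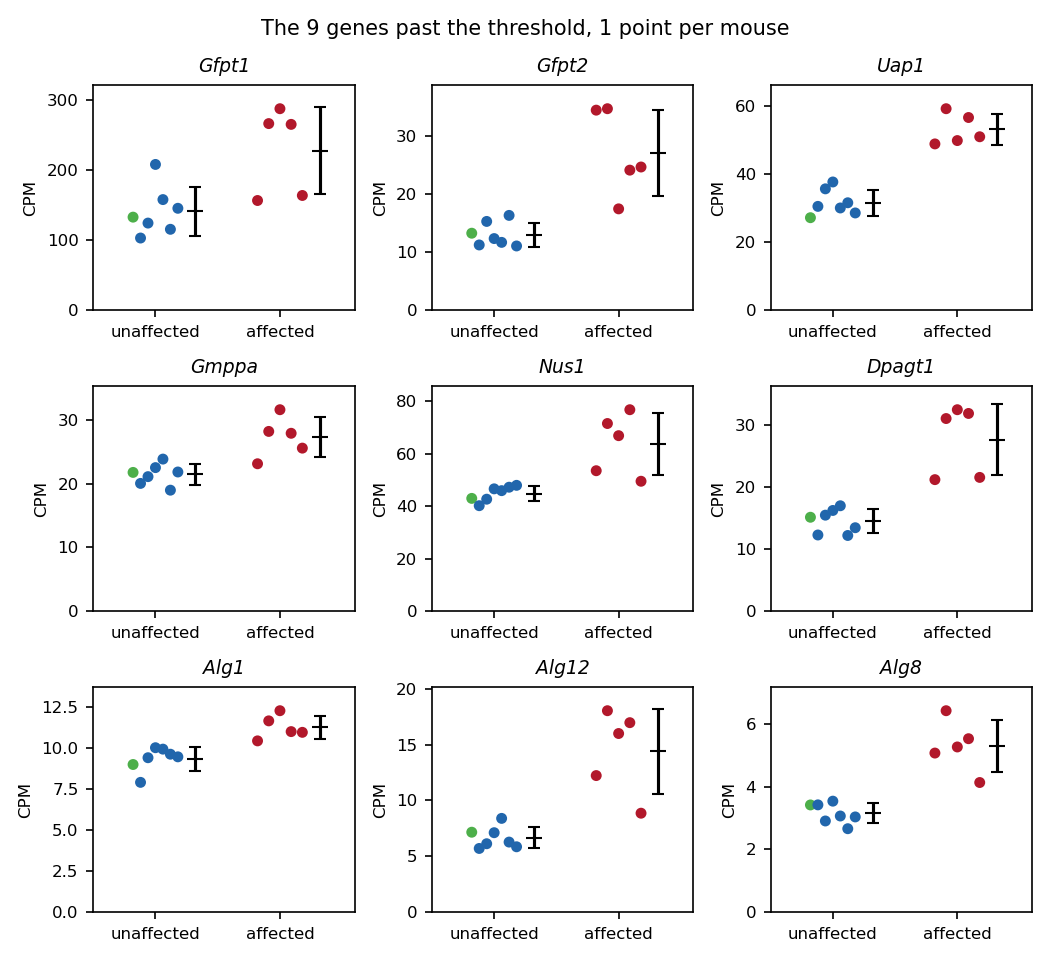
CPM (y axis, from 0) of the 9 genes past the threshold in unaffected (blue, mouse 14 in green) and affected (red) mice, 1 point per mouse, with the group mean and SD beside them. Gfpt1 and Gmppa are the genes whose groups overlap, and affected mice 1 and 6, the first and last red points, are the lowest affected mice for all but Gfpt2 and Uap1.

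Mannose supply held 1 higher gene of 5, with a median log2 fold change of 0.12. Gmppa (ENSMUSG00000033021, chr1:75435930-75443179, plus strand), the regulatory subunit of GDP-mannose pyrophosphorylase, was at 23.1, 28.2, 31.6, 27.9 and 25.5 CPM in affected mice 1, 3, 4, 5 and 6, and at 18.96 to 23.8 CPM with a median of 21.7 in unaffected mice. Affected mouse 1 alone lay inside the unaffected range. Gmppa rose 1.27-fold (log2 fold change 0.35, SE 0.08, adjusted p = 0.0157), and did not pass without unaffected mice 14 and 21 (adjusted p = 0.0521). Gmppb, the catalytic subunit, was at 11.4, 16.5, 11.4, 17.04 and 8.31 CPM in the affected mice, in that order, and at 6.54 to 11.4 CPM with a median of 9.03 in the unaffected mice.

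The Gmppb log2 fold change was 0.53 (SE 0.19, adjusted p = 0.0838), larger than that of Gmppa but with more spread, and passed when affected mouse 6 was left out (adjusted p = 0.0268). Rnf123 lies over 33.6% of the exons of Gmppb on the opposite strand. Mpi, which turns fructose-6-phosphate into mannose-6-phosphate, had a log2 fold change of 0.12 (SE 0.18), and its highest value, 11.5 CPM, came from affected mouse 6. Pmm2, the main phosphomannomutase, was at 35.3, 31.7, 34.3, 31.5 and 28.8 CPM in affected mice 1, 3, 4, 5 and 6 and at 32.1 to 42.2 CPM with a median of 34.7 in unaffected mice (log2 fold change -0.14, SE 0.08, adjusted p = 0.297). Its paralog Pmm1 was at 22.3, 15.2, 15.3, 19.5 and 21.4 CPM in affected and at 15.6 to 22.3 CPM with a median of 17.6 in unaffected mice (log2 fold change 0.05, SE 0.12). Both genes overlapped between groups.

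Dolichol synthesis and recycling held 1 higher gene of 5, with a median log2 fold change of 0.25. Nus1 (ENSMUSG00000023068, chr10:52417547-52440183, plus strand) encodes the Nogo-B receptor, the accessory subunit of cis-prenyltransferase, which builds the dolichol chain. It was at 53.6, 71.6, 66.97, 76.9 and 49.6 CPM in affected mice 1, 3, 4, 5 and 6, and at 40.3 to 48.04 CPM with a median of 46.02 in unaffected mice. The groups did not overlap, and affected mouse 6 was just above the highest unaffected mouse. Nus1 rose 1.42-fold (log2 fold change 0.51, SE 0.10, adjusted p = 0.00731).

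Dhdds, the catalytic subunit of the same enzyme, was at 28.9, 33.6, 37.1, 33.8 and 26.5 CPM in affected mice and at 24.3 to 29.4 CPM with a median of 27.7 in unaffected mice, with an overlap from affected mice 1 and 6. Its log2 fold change was 0.25 (SE 0.09, adjusted p = 0.0694), and it passed without affected mouse 6 (adjusted p = 0.0178). The log2 ratio of Nus1 to Dhdds averaged 0.98 ± 0.14 (SD, n = 5) in affected and 0.74 ± 0.08 (SD, n = 7) in unaffected mice. This difference of 0.24 passed the exact two-sided permutation test (p = 0.00253, adjusted over 5 ratios 0.0126), where the smallest p that 5 against 7 mice allow is 0.00126. Of the 5 pairs compared, no other ratio passed, with an adjusted exact permutation p of 0.399 for Pmm2 to Pmm1 and for Gmppb to Gmppa. The remaining genes of this step had log2 fold changes of 0.29 for Dolpp1, which recovers dolichol phosphate, 0.12 for Dolk, the dolichol kinase, and 0.07 for Srd5a3, the polyprenol reductase, and none passed, although Dolpp1 did without affected mouse 4 (adjusted p = 0.0375).

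**Figure D3:**
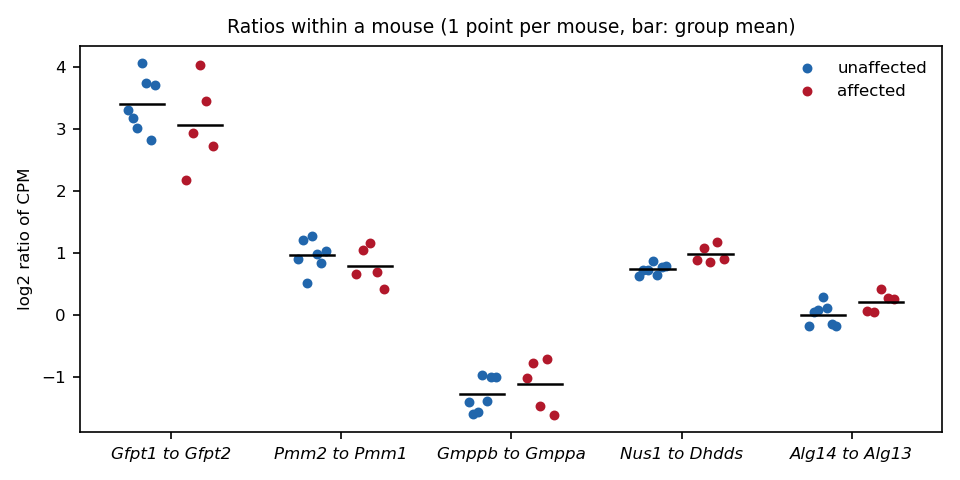
Log2 ratio of CPM between 2 genes of the same mouse (y axis) for 5 pairs of paralogs or subunits, with unaffected mice in blue, affected mice in red and the group mean as a bar. Nus1 to Dhdds is the pair that passed the permutation test, with means of 0.74 in unaffected and 0.98 in affected mice, and its groups still overlap by a small margin.

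The dolichol-linked sugar donors held 0 higher and 0 lower genes of 5, with a median log2 fold change of 0.13, in edgeR and in DESeq2, and 0 passed an unadjusted p of 0.05 in edgeR. Dolichol-phosphate mannose synthase has Dpm1 as its catalytic subunit (log2 fold change -0.04, SE 0.09), and Dpm2 (0.13, SE 0.09) and Dpm3 (0.27, SE 0.15) as its membrane subunits. Alg5, which makes dolichol-phosphate glucose, had a log2 fold change of 0.19 (SE 0.15), with 18.4 CPM in affected mouse 6 and 24.1 to 33.5 CPM in the other affected mice, against 20.2 to 30.5 CPM in unaffected mice. Without affected mice 1 and 6, Alg5 passed with a log2 fold change of 0.40 (adjusted p = 0.0370). Mpdu1, needed for the use of both donors, had a log2 fold change of 0.10 (SE 0.11). The groups of all 5 genes overlapped. Exons of Dpm1 share 11.9% of their length with Gm20716 on the same strand, so these reads may be split.

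The cytosolic assembly steps held 2 higher genes of 6, with a median log2 fold change of 0.11. Dpagt1 (ENSMUSG00000032123, chr9:44326019-44333900, plus strand), which opens the assembly by placing GlcNAc phosphate on dolichol phosphate and is the target of tunicamycin, was at 21.2, 31.1, 32.5, 31.9 and 21.6 CPM in affected mice 1, 3, 4, 5 and 6. In unaffected mice it was at 12.2 to 17.01 CPM with a median of 15.2. The lowest affected mouse was above the highest unaffected one, and mice 3, 4 and 5 were within 2 CPM of each other. Dpagt1 rose 1.90-fold (log2 fold change 0.92, SE 0.13, adjusted p = 0.000971).

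Alg1 (ENSMUSG00000039427, chr16:5233621-5244912, plus strand), which adds the first mannose, was at 10.4, 11.7, 12.3, 10.999 and 10.95 CPM in affected mice 1, 3, 4, 5 and 6, and at 7.91 to 10.02 CPM with a median of 9.46 in unaffected mice. The groups did not overlap but lay close together. Alg1 rose 1.21-fold (log2 fold change 0.27, SE 0.08, adjusted p = 0.0382). The call was lost without affected mouse 3, 4 or 5 (adjusted p = 0.0837, 0.0538 and 0.0695) and without unaffected mouse 14, 21 or 26 (adjusted p = 0.0652, 0.0556 and 0.0646), and Eef2kmt lies over 17.6% of its exons on the opposite strand.

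Alg13 and Alg14, whose products form the enzyme for the second GlcNAc, did not pass the test. Alg13 was at 12.4, 10.7, 9.85, 11.3 and 9.25 CPM in affected and at 11.03 to 12.9 CPM with a median of 11.8 in unaffected mice (log2 fold change -0.15, SE 0.09, adjusted p = 0.28). Alg14 was at 12.97, 11.1, 13.2, 13.6 and 11.1 CPM in affected and at 10.4 to 14.05 CPM with a median of 11.6 in unaffected mice (log2 fold change 0.05, SE 0.09, adjusted p = 0.744). Their log2 ratio, Alg14 to Alg13, differed by 0.21 (exact permutation p = 0.0833, adjusted over 5 ratios 0.208). The mannosyltransferases that follow were Alg2 (log2 fold change 0.13, SE 0.11) and Alg11 (0.09, SE 0.08), and neither passed. Without affected mice 1 and 6, Alg2 passed with a log2 fold change of 0.31 (adjusted p = 0.0324).

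The lumenal assembly steps held 2 higher genes of 6, with a median log2 fold change of 0.32. Here Alg3, Alg9 and Alg12 add mannose from dolichol-phosphate mannose, and Alg6, Alg8 and Alg10b add the closing glucoses in that order. Alg12 (ENSMUSG00000035845, chr15:88805244-88819318, minus strand) was at 12.2, 18.02, 15.98, 16.95 and 8.86 CPM in affected mice 1, 3, 4, 5 and 6, and at 5.71 to 8.40 CPM with a median of 6.28 in unaffected mice. Mice 3, 4 and 5 stood far above the unaffected range and mouse 6 just above it. Alg12 rose 2.16-fold (log2 fold change 1.11, SE 0.17, adjusted p = 0.00113).

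Alg8 (ENSMUSG00000035704, chr7:97371606-97392185, plus strand) was at 5.06, 6.41, 5.26, 5.52 and 4.13 CPM in affected mice 1, 3, 4, 5 and 6, and at 2.66 to 3.54 CPM with a median of 3.06 in unaffected mice. The groups did not overlap. Alg8 rose 1.68-fold (log2 fold change 0.75, SE 0.12, adjusted p = 0.0019). Its neighbors in the order, Alg6 and Alg10b, had log2 fold changes of -0.24 (SE 0.12, adjusted p = 0.223) and -0.02 (SE 0.07, adjusted p = 0.865). Alg6 was at 9.53 to 15.7 CPM in affected and at 13.6 to 17.4 CPM in unaffected mice. Alg3 and Alg9 had log2 fold changes of 0.40 (SE 0.20, adjusted p = 0.197) and 0.23 (SE 0.10, adjusted p = 0.135). Alg3 ranged from 1.95 to 4.62 CPM in unaffected mice and from 3.71 to 4.63 CPM in affected mice.

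The genes differed in level as well as in change. Per kilobase, as FPKM in unaffected mice, Gfpt1 was the highest of the 32 at 26.6 ± 5.9 (SD, n = 7), followed by Pmm2 at 20.2 ± 2.5 and Mpdu1 at 19.4 ± 1.8, which lay within 1 SD of each other. Alg8 was the lowest at 1.99 ± 0.30, with Alg3 at 2.18 ± 0.67 inside the same spread, and Alg12 was at 3.15 ± 0.42. Gfpt2 stood at 4.46 ± 0.63 FPKM in unaffected and 9.32 ± 3.12 FPKM in affected mice, and Gfpt1 at 41.2 ± 10.6 FPKM in affected mice, so Gfpt1 was the more abundant form in both groups. Genes that rose were thus found at both ends of the range.

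Mice differed in how far the genes moved. The median log2 difference of the 32 genes from the unaffected mean was 0.17, 0.32, 0.35, 0.24 and 0.13 in affected mice 1, 3, 4, 5 and 6, and -0.09 to 0.11 in unaffected mice. Affected mouse 6 had 17 of the 32 genes above the unaffected mean, and the other affected mice had 23 to 27. Unaffected mouse 23 had the highest unaffected median and 24 of 32 genes above the mean, so a small common shift also occurred among controls. Unaffected mouse 14, the B6NTac control, lay within the range of the 6 B6NCrl mice for 26 of the 32 genes. Among the 9 higher genes, it lay below that range for Uap1 and within it for the others. A single mouse gives no test of the substrain.

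**Figure D4:**
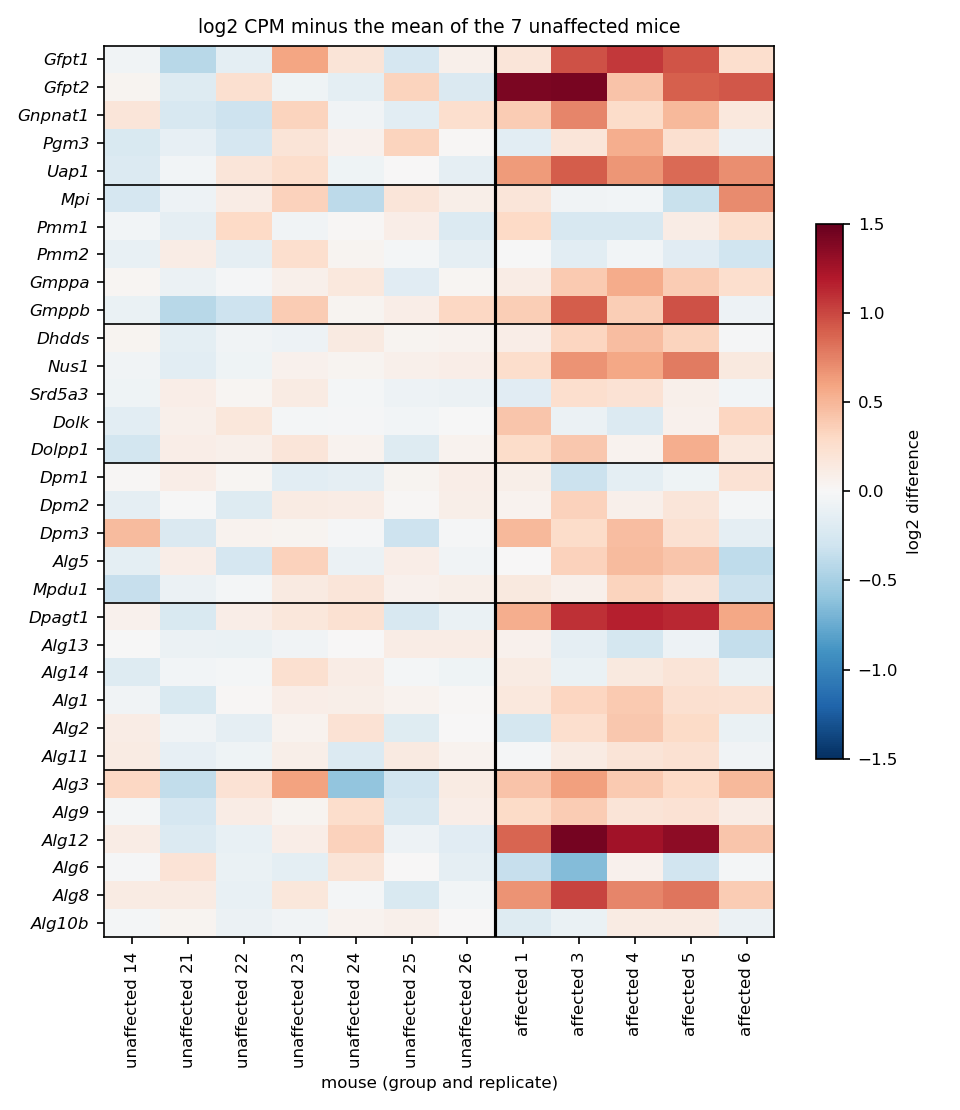
Log2 CPM minus the mean of the 7 unaffected mice (color scale from -1.5 to 1.5) for each of the 32 genes (rows, lines divide pathway steps) in each mouse (columns, unaffected left of the thick line). Uap1, Dpagt1, Alg12 and Alg8 are red in all 5 affected mice, and mice 1 and 6 are paler than mice 3, 4 and 5 for Gfpt1, Nus1, Dpagt1 and Alg12.

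Markers of other cells also differed between the mice. Across all genes tested, 7.63% were higher and 6.10% were lower past the threshold. Macrophage markers summed to 243 to 395 CPM in affected and 92.5 to 221 CPM in unaffected mice, with 4 of 7 higher past the threshold. Fibroblast markers summed to 741 to 1160 CPM in affected and 547 to 792 CPM in unaffected mice, with 2 of 5 higher. The brown fat and airway lists each held 1 higher marker, and the C cell and endothelium lists each held 1 lower marker. B cell markers summed to 104 CPM in affected mouse 1 and to at most 14.0 CPM in the other mice. Plasma cells, which also secrete glycoproteins, had 0 of 8 tested markers past the threshold (3 higher and 1 lower at an unadjusted p of 0.05 in edgeR). The list summed to 138 to 361 CPM in affected and 125 to 183 CPM in unaffected mice, highest in affected mouse 1. Xbp1 was the largest part of this sum in every mouse, at 101 to 139 CPM in affected and 86.0 to 124 CPM in unaffected mice. Sdc1 was at 6.43 to 14.0 CPM in affected and 4.98 to 9.96 CPM in unaffected mice. Jchain and Igkc were at 25.3 and 83.8 CPM in affected mouse 1. They reached at most 0.39 and 1.52 CPM in the other affected mice, and 5.57 and 13.7 CPM in unaffected mice. The part of macrophages, fibroblasts and plasma cells in the changes of the 32 genes was not tested. Gfpt2 was highest in affected mice 1 and 3, which also had the highest macrophage sums. The relation of the 2 was not tested, and whole-tissue sums cannot tell which cells hold the Gfpt2 reads. Unaffected mouse 21 had a macrophage sum of 221 CPM and Gfpt2 at 11.2 CPM, and affected mouse 6 had 243 and 24.6 CPM. Affected mouse 4 had a higher sum than mouse 6, 263 CPM, and less Gfpt2, 17.4 CPM. For 7 of the 9 higher genes, all but Gfpt2 and Uap1, the lowest affected values were those of mice 1 and 6, which had the lowest sums of Pax8, Nkx2-1 and Foxe1.

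The genes around the pathway were taken from separate lists. Across all genes tested in edgeR, 7.63% were higher and 6.10% were lower. In lists this short, a single call does not set the list apart from those shares. Of 12 oligosaccharyltransferase subunits, which move the finished sugar to protein, 11 were higher and 0 lower, with a median log2 fold change of 0.82. Krtcap2 (1.16), Rpn2 (1.00) and Ddost (0.97) had the largest changes. Of 8 genes of GlcNAc salvage, use and breakdown, 0 were higher, also at an unadjusted p of 0.05, and 1 was lower, with a median of -0.11. That gene was Amdhd2, which removes the acetyl group from GlcNAc-6-phosphate and so opposes the hexosamine pathway. Amdhd2 was at 12.2, 11.8, 13.1, 11.04 and 10.3 CPM in affected mice 1, 3, 4, 5 and 6 and at 12.9 to 17.8 CPM with a median of 14.6 in unaffected mice, so that affected mouse 4 alone overlapped. Its log2 fold change was -0.36 (SE 0.09, adjusted p = 0.0237). The call was lost without affected mouse 3, 5 or 6 (adjusted p = 0.0503, 0.0649 and 0.0548) or unaffected mouse 24 (adjusted p = 0.0552).

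Of 4 genes of GDP-fucose synthesis, which starts from GDP-mannose, 1 was higher, Gmds, the GDP-mannose dehydratase (log2 fold change 0.74, SE 0.18, adjusted p = 0.0155). This call did not hold without unaffected mice 14 and 21 (adjusted p = 0.0537). Of 7 genes of hexose phosphate and UDP-glucose supply, 1 was higher, Ugdh, which turns UDP-glucose into UDP-glucuronate (0.43, SE 0.08, adjusted p = 0.00555). Of 8 genes of isoprenoid supply, which feeds dolichol and sterols, 1 was higher, Mvd (1.17, SE 0.28, adjusted p = 0.0147). Among 9 other genes that use dolichol-phosphate mannose, 0 were higher, also at an unadjusted p of 0.05, and 1 was lower, Pigz (-1.001, SE 0.24, adjusted p = 0.015), at 0.771 to 1.40 CPM in affected and 1.66 to 3.42 CPM in unaffected mice.

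**Figure D5:**
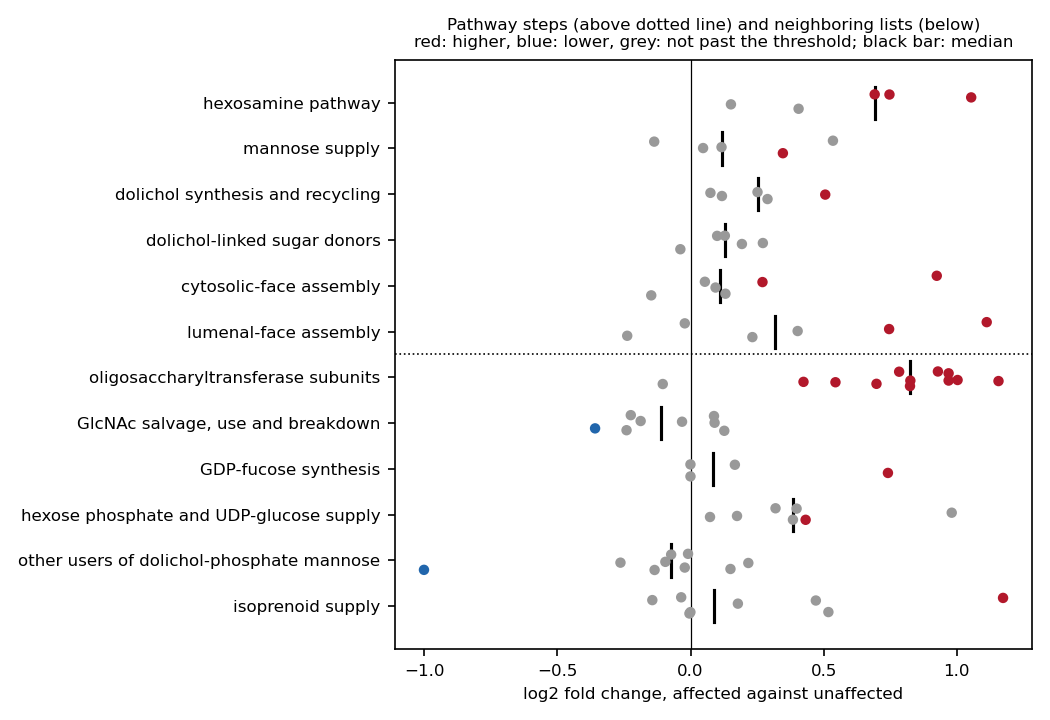
Log2 fold change (x axis, affected against unaffected) of each gene in the 6 pathway steps (above the dotted line) and in 6 lists around them (below), with 1 point per gene, red for higher, blue for lower, grey for not past the threshold, and a bar at the median. The oligosaccharyltransferase list has 11 of 12 points in red and a median of 0.82, and the hexosamine pathway has the highest median of the 6 steps, 0.69.

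Transcript use was also compared, as the length implied by count, FPKM and library total. Of the 25 members with at least 100 counts in every mouse, 0 had lengths that separated the groups. This compares with 1.67% of 9084 genes with several transcripts and the same minimum count, although the 25 include Dolk, with 1 annotated transcript. Among all 32 members, Alg12 had the smallest p, but it is not one of the 25, with 86 counts in unaffected mouse 14. Its mean implied length was 2082 bases in affected and 2122 bases in unaffected mice (exact permutation p = 0.00379, adjusted over 32 genes 0.121). The 32 genes lay on 15 chromosomes, and 11 had exons over another gene, 4 of them on the same strand. The deposited annotation marks 15 of the 32 as confounded, among them Dpagt1 and Alg1 of the higher genes. Dpagt1, Dolk, Alg13 and Alg14 carry this mark although no exon overlap was found for them. Estimated counts of Dpagt1 were not whole in unaffected mice 24 and 25, so its reads may be shared.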

How the data were processed

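Total RNA from thyroids of 12 mice was depleted of ribosomal RNA and sequenced by the authors on an Illumina NextSeq, aligned with the OmicSoft Aligner to the mouse genome with Ensembl gene models (GRCm38), and quantified per gene in Array Studio. The deposited tables hold expected counts per gene, which are estimates and need not be whole, and FPKM values normalized by the authors. Whether counting used strand was not given in the sources used here. Samples were grouped by the phenotype in the labels. Nothing states a batch, and p-values measure the spread between these animals.

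Expected counts were rounded and tested with edgeR 4.0.16 (filterByExpr with a minimum count of 10, TMM factors, robust quasi-likelihood fit on all 12 mice, Benjamini-Hochberg adjustment over 19661 genes, threshold 0.05), in R 4.3.3. Standard errors were derived from the F statistic. CPM were scaled by TMM. Ratios used log2 CPM with a prior count of 2 and exact two-sided permutation tests, adjusted over 5 ratios. The member genes and the lists were chosen with earlier results of these data known. Every member was named. Values per mouse were given for up to 3 members of each step with the largest change past the threshold and for the genes of the 5 ratios, and up to 3 genes of each surrounding list were named by the same rule. The ranges given for Alg5, Alg6 and Alg3, the value for Mpi, the follicular markers named and the motifs CCACG and CCAAT were chosen after their values were seen.

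DESeq2 1.42.0, limma 3.58.1 on FPKM with a pseudocount of 1 or 0.1 before log2 (genes averaging 0.5 FPKM or more, or no filter), sva 3.50.0, other scalings and filters, Xist as a covariate and leaving out mice were tried as alternatives. The edgeR step was tested on simulated data. No 2 libraries were alike within sampling noise: the smallest chi-square per degree of freedom over 66 pairs was 11.95. Promoter windows and exon overlaps came from RefSeq (GRCm38.p6) and GENCODE annotation of the same build.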

Additional observations from a re-analysis of the deposited data

Results flagged for a closer look

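One value of 92 group and quantity combinations stood apart from its group by Dixon's test. Gmds was at 14.3 CPM in unaffected mouse 23, and the next unaffected mouse was at 9.50 CPM, a gap of 0.633 of the group's range against a critical value of 0.568. Chance alone marks about 1 in 20 such groups.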

How the results depend on the processing

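No paired analysis was run because the groups are different animals and no pairing between them was stated. Gfpt2, Uap1, Dpagt1 and Alg12 passed the threshold in all 26 alternatives, Nus1 and Alg8 in 25, Gmppa in 24, Gfpt1 in 12 and Alg1 in 11, all in the main direction, and the alternative with the 6 B6NCrl controls is the one without unaffected mouse 14. The count of higher members was 7 to 12 when 1 mouse was left out, and no member was lower in any alternative. Without Tg in the library totals and without TMM factors it was 5, with Alg1 (adjusted p = 0.403), Gfpt1 (0.1002), Gmppa (0.241) and Nus1 (0.0897) lost. That scaling moved the median log2 fold change of all genes to -0.13, with the members' median at 0.09, and gave 604 genes higher and 1709 lower, against 1500 and 1199. With limma on FPKM, 979 (pseudocount 1), 983 (pseudocount 0.1) and 719 (no filter) of all genes were higher, and 620 were lower with no filter, where Alg8 was lost (adjusted p = 0.0583). Among the surrounding genes, the scaling without Tg ended the calls of Gmds (0.0533) and Ugdh (0.116), limma with no filter those of Ugdh (0.0851), Mvd (0.0666) and Amdhd2 (0.0753), and each limma fit that of Pigz (0.0585 to 0.146). When 1 mouse was left out, 746 to 1518 of all genes were lower, and without unaffected mice 14 and 21, chosen after seeing the data, 771.

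Changes of direction were limited to members that did not pass. Without Tg in the totals, log2 fold changes were -0.039 for Mpi, -0.094 for Pmm1, -0.054 for Srd5a3, -0.027 for Dolk, -0.0013 for Dpm2, -0.021 for Mpdu1, -0.075 for Alg14 and -0.035 for Alg11. Pmm1 was at -0.0015 with upper-quartile factors, and Dpm1 at 0.089 with limma (pseudocount 1, with and without the filter) and 0.096 (pseudocount 0.1). When 1 mouse was left out, Mpi ranged from -0.063 to 0.22, Pmm1 from -0.022 to 0.13 and Alg10b from -0.061 to 0.019, and the log2 fold change of Dpm1 ranged from -0.099 to 0.026. Without affected mice 1 and 6, also chosen after seeing the data, Mpi was at -0.16, Pmm1 at -0.12, Dolk at -0.077 and Alg10b at 0.054. The cause of these differences was not tested. Members at a few CPM, such as Alg8, Alg3 and Dpm3, rest on the fewest reads.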
